A study of Sus scrofa with 6 samples.

Results

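Neural crest and coat-colour genes that have been proposed as targets of domestication were examined in pig brain. The set named 8 genes: the receptors KIT, EDNRB and MC1R, the ligands KITLG and EDN3, the transcription factors MITF and PAX3, and the chromatin regulator BAZ1B. Members were matched by gene symbol to the Ensembl identifiers of the deposited table, taking the row with the highest mean per symbol. Of the 8, 5 had a row among 18225 genes in all (KIT, EDNRB, MC1R, MITF and BAZ1B), each with 1 row, and KITLG, EDN3 and PAX3 were not analysed here.

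Messenger RNA was measured in brains of 3 Rongchang pigs, a domesticated Chinese breed, and 3 wild boars, all 210 days old, with 1 library per animal. The labels give no brain region, sex, coat colour or origin of the animals, and no treatment or allele. Values are the authors' FPKM (fragments scaled to transcript length and to the fragments mapped), so levels can be compared between genes per length, while depth per library is unknown. Nothing states that the numbered animals came from separate litters, and p-values therefore cover only the variation among the 6 libraries.

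Neural crest cells leave the dorsal neural tube of the embryo and form melanocytes, peripheral glia, enteric neurons and much of the face. KIT, a receptor tyrosine kinase activated by KIT ligand (KITLG), and EDNRB, a G protein-coupled receptor activated by endothelin 3 (EDN3), support the survival and migration of melanocyte precursors. PAX3 activates MITF, the master regulator of the melanocyte, and the melanocortin receptor MC1R then sets the balance between black and red pigment. In pigs, KIT variants cause white coats and MC1R variants black or red ones. Rongchang pigs are a mostly white breed with dark patches around the eyes. No genotype of these animals was available, and a link between that coat and KIT or MC1R was not tested. BAZ1B, a bromodomain protein of chromatin remodelling complexes, was linked to neural crest migration in human cells. In the adult brain, KIT marks certain interneurons and EDNRB is typical of astrocytes and endothelial cells.

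The 5 genes stood in the same order of level in all 6 libraries: BAZ1B highest, then KIT, MC1R, EDNRB and MITF. Their mean FPKM over the 6 libraries lay at the 72.9th, 57.3rd, 44.6th, 32.0th and 24.7th percentile of all rows. BAZ1B stood 1.72 to 2.29 times above KIT per length in Rongchang brains and 1.81 to 2.57 times above it in wild boar brains. Genes that reached 1 FPKM in 3 or more libraries were tested between breeds (limma on log2(FPKM + 1), 13152 genes). KIT, EDNRB, MC1R and BAZ1B passed that filter, and MITF, at or above 1 FPKM in 2 libraries, did not. None of the 4 tested passed the threshold of adjusted p = 0.05, over all genes, in either direction (0 in limma, and 0 at an unadjusted p under 0.05). Of all genes tested, 0.0076% were called higher in Rongchang and 0% lower, and 5.42% and 0.578% had an unadjusted p under 0.05 in those directions.

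**Figure D1:**
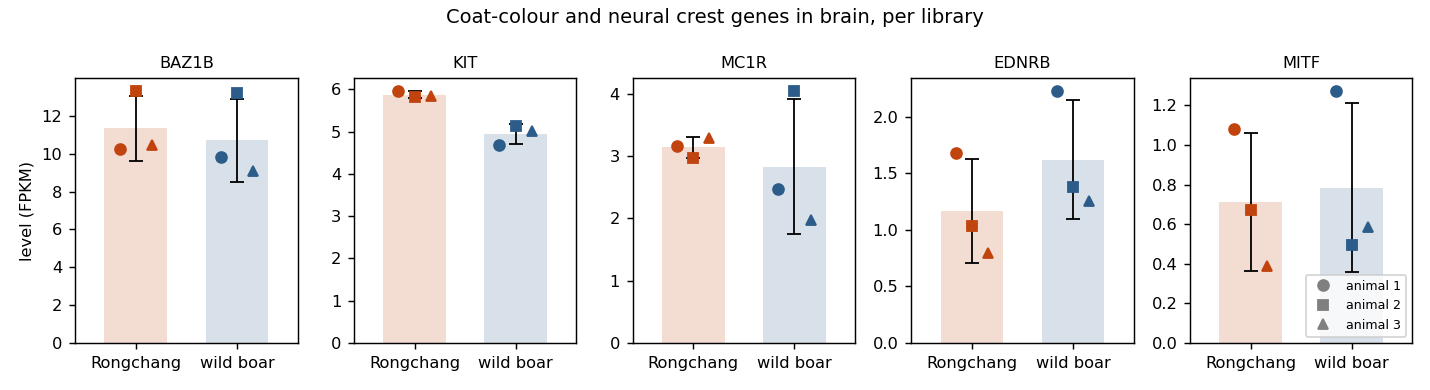
Level in FPKM of each gene with a row, on a linear axis from 0, per library; bars are breed means, error bars are SD (n = 3 per breed) and symbols mark the animal number. The 3 Rongchang values of KIT lie above the 3 wild boar values, and the breeds overlap for the other 4 genes.

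KIT, the receptor for KIT ligand, was at 5.96, 5.82 and 5.86 FPKM in Rongchang brains 1 to 3, against 4.68, 5.13 and 5.02 FPKM in wild boar brains 1 to 3. Every Rongchang library lay above every wild boar library. The means were 5.88 ± 0.0748 FPKM in Rongchang and 4.94 ± 0.236 FPKM in wild boar (SD, n = 3 each), a ratio of 1.19. The log2 fold change was 0.21 (SE 0.13, 95% interval −0.09 to 0.51; limma, adjusted p = 0.811), and an exact two-sided permutation test gave p = 0.1, the smallest that 3 against 3 animals allow. Such separation with Rongchang higher was shown by 11.4% of all genes tested, and separation with Rongchang lower by 1.12%. The median gene was itself higher in Rongchang by 0.13 log2 units, so KIT lay 0.08 above the median gene. With each library scaled to the same median, the median gene lay at −0.02 and the log2 fold change of KIT was 0.07 (adjusted p = 1.0). KIT varied little between animals of a breed: its pooled within-breed SD of 0.042 log2 units was below that of all but 0.327% of genes tested. The SE and interval above come from the limma fit with its mean-variance trend, and do not reflect that spread alone.

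In RefSeq's Sscrofa11.1 assembly the protein-coding neighbours of KIT are PDGFRA, the receptor for platelet-derived growth factor on glial precursors, and KDR, the endothelial receptor for vascular endothelial growth factor. PDGFRA was at 7.74, 9.98 and 5.53 FPKM in Rongchang, against 8.93, 5.14 and 5.66 FPKM in wild boar (a log2 fold change of 0.21, adjusted p = 0.878). KDR was at 3.79, 3.50 and 2.74 FPKM in Rongchang, against 4.58, 3.65 and 2.79 FPKM in wild boar (−0.10, adjusted p = 0.918). Both overlapped between the breeds. In the deposited table the identifiers of PDGFRA, KIT and KDR carry consecutive numbers with a single gap, filled by ENSSSCG00000008843, which has no symbol. That row was at 4.54, 5.86 and 5.16 FPKM in Rongchang and listed at 0 in all 3 wild boars, and it was the single gene called among the 13152 tested (limma, adjusted p = 0.00123). It was chosen for description after its values were seen, and it reached the filter of 1 FPKM in 3 libraries only through the Rongchang group, where it was high, so its p-value is given as a description. With no filter on low values, over all 18225 genes, its adjusted p was 0.00263 (limma), also given only as a description. For this row an exact two-sided permutation test gave p = 0.1, the smallest that 3 against 3 animals allow. Its exact 0 values in wild boar can be failed estimates. It fell under the filter when any 1 Rongchang library was left out. The files give no position for it. Among pairs of named identifiers whose numbers differ by 2 and lie within 500 of that of KIT, 211 of 211 were on the same chromosome in Sscrofa11.1, and 201 (95.3%) lay within 5 protein-coding genes of each other. Over the whole table, 88.8% of 4563 such pairs shared a chromosome, and 81.8% lay within 5 protein-coding genes of each other. These counts describe pairs of named genes, and the position of ENSSSCG00000008843 itself was not tested.

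**Figure D2:**
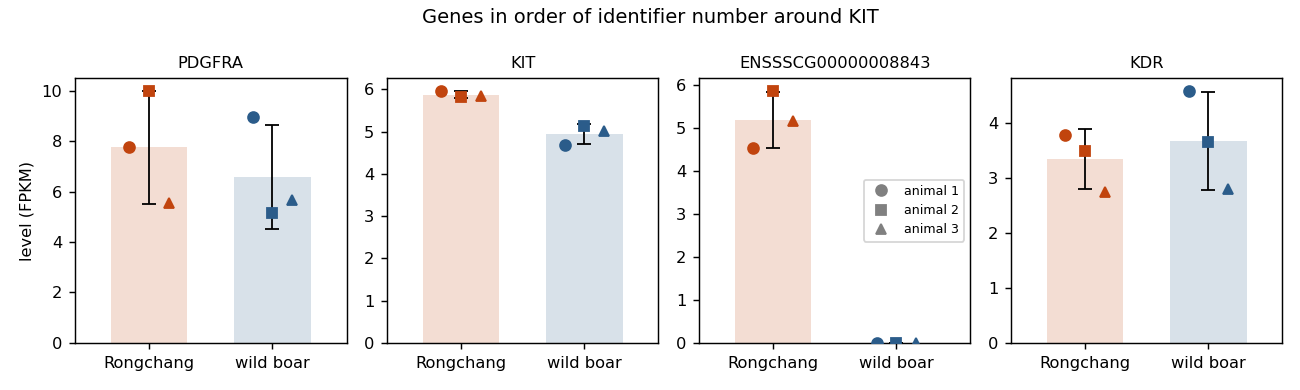
Level in FPKM, on linear axes from 0, of the genes with consecutive identifier numbers around KIT, per library; bars are breed means, error bars are SD (n = 3 per breed) and symbols mark the animal number. ENSSSCG00000008843 lies between 4.54 and 5.86 FPKM in Rongchang and at 0 in wild boar, KIT is separated by breed, and PDGFRA and KDR overlap.

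EDNRB, the endothelin receptor of melanocyte and enteric precursors, was at 1.68, 1.03 and 0.796 FPKM in Rongchang brains 1 to 3, against 2.23, 1.38 and 1.26 FPKM in wild boar brains 1 to 3. Rongchang was the lower of each same-numbered pair, yet the breeds overlapped through Rongchang 1. The means were 1.17 ± 0.459 FPKM in Rongchang and 1.62 ± 0.528 FPKM in wild boar (SD, n = 3 each), a ratio of 0.721. The log2 fold change was −0.28 (SE 0.21, 95% interval −0.77 to 0.21; limma, adjusted p = 0.849; exact permutation p = 0.4). It was −0.37 after median scaling, and 2.92% of all genes tested had a lower fold change. Its size depended on single libraries: without wild boar 1 it was −0.12 and without Rongchang 1 it was −0.44. With the animal number as a replicate block, EDNRB had an unadjusted p of 0.0792 in limma and an adjusted p of 0.332. With the block and median scaling together these were 0.0298 and 0.449, in a fit where 660 genes higher and 719 lower in Rongchang had an unadjusted p under 0.05.

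Endothelial marker genes lay in the same direction as EDNRB. Of 8 markers listed, 5 had a row, and their summed level was 26.5 to 39.9 FPKM in Rongchang and 38.4 to 44.4 FPKM in wild boar, with all 5 below 0 in fold change and 0 called. Astrocyte markers (7 of 10 with a row) summed to 995 to 1258 FPKM in Rongchang and 987 to 1241 FPKM in wild boar, with 4 of 7 above 0. The part of these cell types in the EDNRB values was not tested, and in bulk tissue fewer cells of a type and less RNA per cell cannot be told apart.

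MC1R, the melanocortin receptor of melanocytes, was at 3.17, 2.97 and 3.30 FPKM in Rongchang brains 1 to 3, against 2.48, 4.05 and 1.98 FPKM in wild boar brains 1 to 3. The Rongchang values sat close together and inside the range of the wild boars. The means were 3.14 ± 0.165 FPKM in Rongchang and 2.84 ± 1.08 FPKM in wild boar (SD, n = 3 each). The log2 fold change was 0.15 (SE 0.21, 95% interval −0.33 to 0.62; limma, adjusted p = 0.889; exact permutation p = 0.6), or 0.02 after median scaling. It was 0.36 without wild boar 2, and its sign turned without wild boar 3 (−0.017). DEF8, the adjacent protein-coding gene on one side of it in Sscrofa11.1, was at 20.9, 22.3 and 21.1 FPKM in Rongchang, against 17.2, 16.1 and 10.7 FPKM in wild boar, with no overlap (a log2 fold change of 0.55, adjusted p = 0.789). SPIRE2 lies 2 protein-coding genes away on the other side of MC1R, and the nearer gene there is not reported here. SPIRE2 was at 17.7, 17.2 and 19.4 FPKM in Rongchang, against 15.5, 17.8 and 16.6 FPKM in wild boar. It overlapped between the breeds (a log2 fold change of 0.12; limma, adjusted p = 0.88).

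MITF, the melanocyte transcription factor that osteoclasts and other cells also use, was at 1.08, 0.67 and 0.389 FPKM in Rongchang brains 1 to 3, against 1.27, 0.492 and 0.585 FPKM in wild boar brains 1 to 3. The libraries numbered 1 were the highest of both breeds, and the breeds overlapped. The means were 0.714 ± 0.348 FPKM in Rongchang and 0.783 ± 0.426 FPKM in wild boar (SD, n = 3 each). The difference of −0.05 on the log2(FPKM + 1) scale had an exact two-sided permutation p of 0.8. It changed sign when single libraries were left out (−0.20 to 0.14).

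BAZ1B was at 10.2, 13.3 and 10.5 FPKM in Rongchang brains 1 to 3, against 9.85, 13.2 and 9.09 FPKM in wild boar brains 1 to 3. The library numbered 2 was the highest of each breed, and Rongchang was slightly the higher of each same-numbered pair. The means were 11.3 ± 1.71 FPKM in Rongchang and 10.7 ± 2.19 FPKM in wild boar (SD, n = 3 each). The log2 fold change was 0.08 (SE 0.18, 95% interval −0.34 to 0.51; limma, adjusted p = 0.929; exact permutation p = 0.5), and it turned to −0.076 after median scaling. It was −0.029 without Rongchang 2, −0.018 without wild boar 3 and 0.23 without wild boar 2.

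Within a breed the genes followed the animal number in different ways. EDNRB in the libraries numbered 1 lay 0.33 log2 units above the breed mean in Rongchang and 0.32 above it in wild boar. MITF lay 0.30 above it in Rongchang 1 and 0.38 in wild boar 1. Over the 6 libraries, with breed means removed, the deviations of EDNRB and MITF had a Pearson r of 0.97 (n = 6, a description). BAZ1B instead lay 0.22 above the breed mean in Rongchang 2 and 0.29 above it in wild boar 2. MC1R lay 0.43 above the breed mean in wild boar 2 and −0.06 from it in Rongchang 2, so that its animals of the same number did not match. Neuron marker sums were lowest in the libraries numbered 1 (1865 FPKM in Rongchang 1 and 1766 FPKM in wild boar 1, against 2338 to 2575 FPKM in the other 4), and oligodendrocyte sums were highest there (2069 FPKM in Rongchang 1 and 2176 FPKM in wild boar 1). Astrocyte sums were also highest there, at 1258 FPKM in Rongchang 1 and 1241 FPKM in wild boar 1. Endothelial sums were highest in the library numbered 1 only within each breed, at 39.9 FPKM in Rongchang 1 and 44.4 FPKM in wild boar 1. Wild boar 3, at 40.3 FPKM, lay above Rongchang 1. The part of these cell types in the EDNRB and MITF values was not tested.

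**Figure D3:**
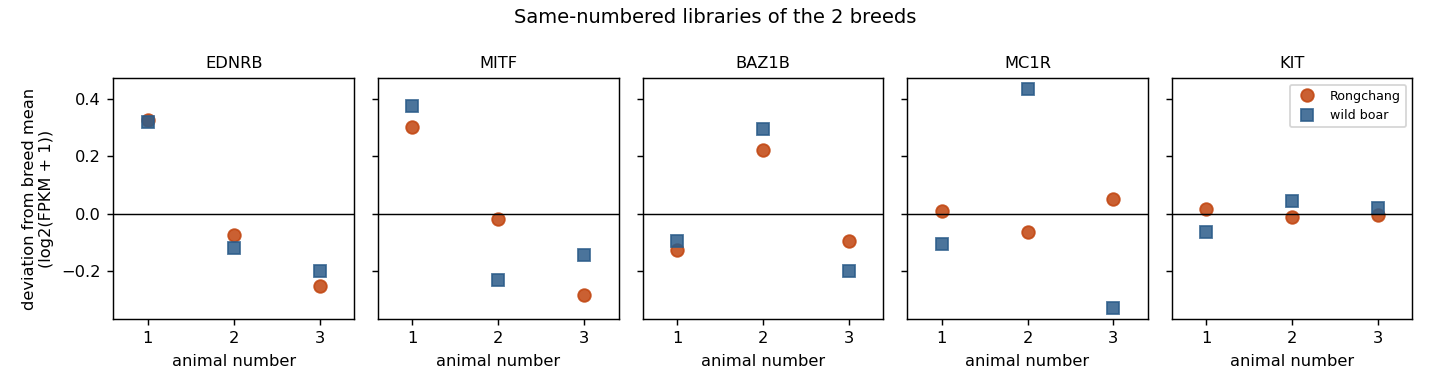
Deviation of each library from its breed mean in log2(FPKM + 1), by animal number, for the 5 genes with a row. EDNRB and MITF are highest in the libraries numbered 1 of both breeds, BAZ1B in those numbered 2, and KIT stays within 0.065 log2 units of the mean.

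The genes with a symbol whose deviations were most like each tested member over the 6 libraries were found among 8537 compared. For KIT they were TRIM47, DCBLD1 and GRIP2 (Pearson r from 0.989 to 0.999). For EDNRB they were LRATD2, ZC3HAV1 and TTC21B (0.990 to 0.996), and for MC1R they were ZNF135, NYAP2 and ZNF341 (0.988 to 0.992). For BAZ1B they were RAB3D, GAPVD1 and ZNF638 (all 0.999). A Pearson r above 0.9 was shared with BAZ1B by 800 genes, with MC1R by 167, with EDNRB by 121 and with KIT by 78. With 6 libraries from 2 breeds, these values are descriptions without a test.

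**Figure D4:**
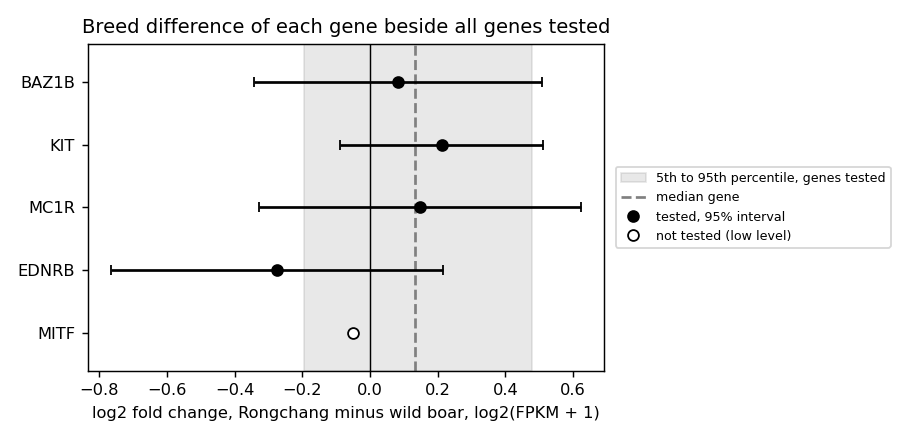
Log2 fold change, Rongchang minus wild boar on log2(FPKM + 1), of each gene with a row; bars are 95% intervals of the limma fit, the open point was not tested, the band spans the 5th to 95th percentile of all genes tested (−0.19 to 0.48) and the dashed line is the median gene (0.13). All 4 intervals include 0, and EDNRB at −0.28 lies below the band.

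The pathways around the members were followed with 11 gene lists that hold no member, and 110 genes of them were tested. None passed over all genes (0 in limma), where 0.0076% of all genes did as higher in Rongchang. At an unadjusted p under 0.05, 2 (1.82%) were higher and 1 (0.909%) was lower in Rongchang, against 5.42% and 0.578% of all genes tested. Of the 110, 77 (70.0%) had a fold change above 0, against 77.9% of all genes tested, and their median was 0.11, against 0.13 for all genes. The breeds did not overlap for 9 genes (8.18%) higher and 2 (1.82%) lower in Rongchang, against 11.4% and 1.12% of all genes tested.

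Among relatives of KIT and their ligands, 4 of 6 tested lay above 0, with a median of 0.15. PDGFRB, the receptor of pericytes, was at 3.85, 3.42 and 3.18 FPKM in Rongchang, against 4.21, 7.58 and 4.50 FPKM in wild boar, with no overlap (a log2 fold change of −0.49, adjusted p = 0.789). PDGFA, a glial growth factor, stood at 0.35 and CSF1R, the microglial receptor and most abundant of the list, at 0.17. Of 23 adaptors and kinases that act below KIT, 20 lay above 0 (median 0.11), and 8 of the 23 lay above the median gene. The Src-family kinase LYN was at 2.05, 1.80 and 1.99 FPKM in Rongchang, against 2.67, 2.74 and 2.81 FPKM in wild boar, and was the 1 gene of the lists with an unadjusted p under 0.05 that was lower (−0.34, adjusted p = 0.789). The adaptor SHC1 had a log2 fold change of 0.28, also with no overlap between the breeds.

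Of the endothelin system, 3 genes were tested. EDNRA, the vascular endothelin receptor, had a log2 fold change of 0.07, the endothelin-converting enzyme ECE1 one of −0.005 and the related protease ECEL1 one of 0.40 (adjusted p from 0.857 to 0.995). Of the melanocortin system, 5 of 6 lay above 0 (median 0.16). The prohormone convertase PCSK2 stood at 0.33, the receptor accessory protein MRAP2 at 0.25 and the ubiquitin ligase MGRN1, known from mouse coat-colour mutants, at 0.17. CPE, the carboxypeptidase that trims peptide hormones and the most abundant of that list, stood at 0.09 (adjusted p = 0.934).

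Melanin and melanosome genes had 14 tested of 18 with a row, of which 11 lay above 0, with a median of 0.14. Of 9 melanocyte markers, 5 had a row, and they summed to 2.30 to 4.32 FPKM in Rongchang and 1.78 to 2.73 FPKM in wild boar. TYRP1, the melanosomal oxidase, was listed at 0 in 5 of 6 libraries, PMEL, the fibril protein of melanosomes, was at most 0.05 FPKM in Rongchang and 0.15 FPKM in wild boar, and the channel TRPM1 was at most 0.051 FPKM in any library. The transporter SLC45A2 was at 1.51, 0.594 and 0.881 FPKM in Rongchang, against 0.38, 0.551 and 0.883 FPKM in wild boar, and overlapped. DCT, the most abundant of these markers and a tautomerase also made by neural precursors, was at 2.75, 1.62 and 1.79 FPKM in Rongchang, against 2.29, 1.09 and 1.49 FPKM in wild boar (a log2 fold change of 0.23, adjusted p = 0.86). HPS6, a subunit of a complex that builds lysosome-related organelles, was at 1.58, 1.35 and 1.66 FPKM in Rongchang, against 1.02, 0.82 and 0.93 FPKM in wild boar, with no overlap (0.40, adjusted p = 0.789). MITF relatives and regulators had 5 of 8 above 0, with TFEB, a regulator of lysosome genes, at 0.25 and the Wnt effector CTNNB1 at 0.29.

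Neural crest genes had 13 tested, of which 7 lay above 0, and 2 of the 13 lay above the median gene (median 0.02). The specifier SOX9, also an astrocyte factor, was at 14.7, 9.97 and 6.26 FPKM in Rongchang, against 10.3, 13.1 and 11.7 FPKM in wild boar (−0.23, adjusted p = 0.874), and its fold change turned to 0.05 without Rongchang 3. The adhesion molecule CDH2 had a log2 fold change of −1.04 (adjusted p = 0.857). It was at 35.3, 643 and 355 FPKM in Rongchang, against 417, 549 and 316 FPKM in wild boar, and its fold change turned to 0.20 without Rongchang 1. PAX6, the forebrain relative of PAX3 and the 1 other PAX gene tested, was at 5.97, 5.61 and 4.67 FPKM in Rongchang, against 4.59, 3.86 and 4.29 FPKM in wild boar, with no overlap (0.29, adjusted p = 0.789).

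BAZ1B acts with ISWI remodelling enzymes, and of 11 such partners and paralogues tested, 6 lay above 0 (median 0.05). Its ISWI partner SMARCA5 was at 23.5, 28.1 and 21.5 FPKM in Rongchang, against 20.8, 25.6 and 19.3 FPKM in wild boar (a log2 fold change of 0.15, adjusted p = 0.875). The libraries numbered 2 were again the highest of each breed. The histone-fold subunit CHRAC1 was at 10.9, 8.62 and 12.5 FPKM in Rongchang, against 8.32, 5.52 and 8.78 FPKM in wild boar (0.46, adjusted p = 0.789). Of 15 genes tested from the region that is deleted with BAZ1B in human Williams-Beuren syndrome, 10 lay above 0 (median 0.15). TBL2, a stress-related protein of the endoplasmic reticulum, was at 4.94, 5.12 and 4.37 FPKM in Rongchang, against 3.44, 3.74 and 3.11 FPKM in wild boar, with no overlap (0.39, adjusted p = 0.789). MLXIPL, a glucose-responsive transcription factor, stood at 0.30, and EIF4H, a translation factor and the most abundant of the region, at 0.18.

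**Figure D5:**
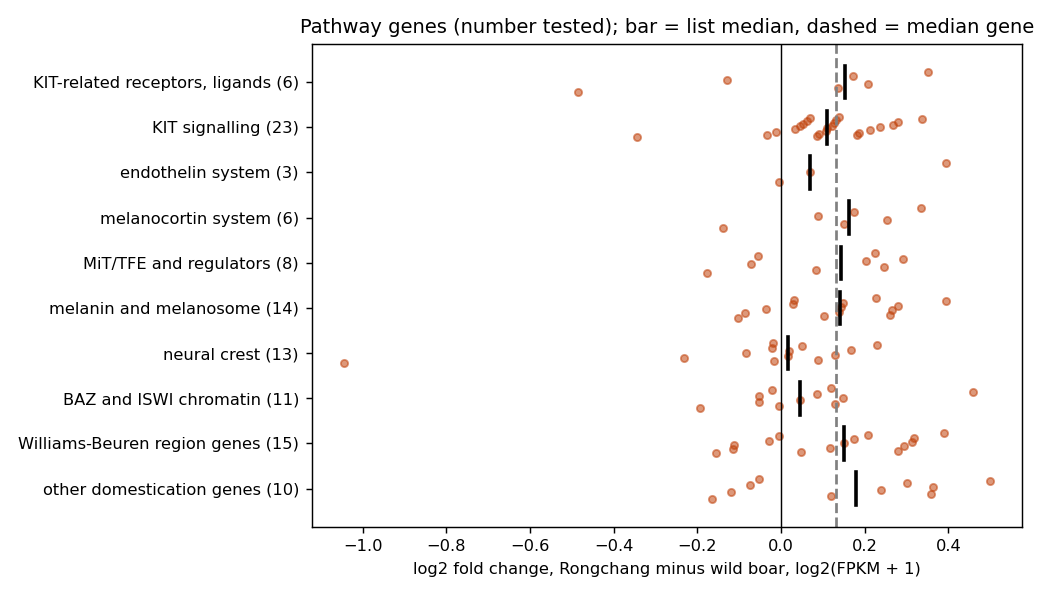
Log2 fold change, Rongchang minus wild boar on log2(FPKM + 1), of each tested gene in the 10 lists with at least 3 genes tested; points are genes, black bars list medians, and the dashed line is the median gene (0.13). List medians lie between 0.02 and 0.18, and the point at −1.04 is CDH2.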

How the data were processed

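The authors deposited 1 table of FPKM values per gene and library. The header gives no unit, which was judged from the values (decimals with exact zeros, summing to 568921 to 687359 per library) and from the tools that the submitters' processing notes name: TopHat2 2.0.11, Cufflinks 2.2.1 and Cuffdiff. Poly(A) RNA was sequenced as 100-bp read pairs from strand-marked cDNA, per the labels' protocols. Not given in the sources used here are strand setting, genome build and annotation; overlapping genes are therefore uncertain and no coordinates are printed. Depth is unknown, and an exact 0 can be a failed estimate.

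Rongchang minus wild boar was fitted with limma 3.58.1 (R 4.3.3) on log2(FPKM + 1), two-sided and with a mean-variance trend. The fit covered 13152 genes that reached 1 FPKM in 3 or more of the 6 libraries, with Benjamini-Hochberg adjustment over all of them. The procedure was tested on simulated tables, with changes far larger than the fold change of any member. That test does not bear on differences as small as those of the members. Symbols were matched for 10937 rows. Members and lists were chosen with earlier results of these data known. Named genes are the members, the genes of a list with the 4 smallest p and its most abundant gene, and the 3 genes most alike to each tested member. ENSSSCG00000008843, PDGFRA, KDR, DEF8 and SPIRE2 as neighbours, the single markers of melanocytes, mast cells and choroid plexus, and GRIK2 were named after values were seen. Not every gene that this rule names is reported here.

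Both breeds number their animals 1 to 3. Deviations from breed means correlated at 0.28, 0.59 and 0.37 between same-numbered libraries, above the bound of 0.1, and the number was therefore also fitted as a block. Between libraries of different number the correlations ran from −0.45 to 0.12. Of those, Rongchang 1 with wild boar 3 (0.12) also passed the bound. Pairing by number comes from the values, and no label says what a number marks.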

Additional observations from a re-analysis of the deposited data

How the results depend on the processing

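Over 77 alternative values of the 5 members, 0 passed the threshold and 69 kept their direction (limma where a test was made, lowest adjusted p = 0.332, for EDNRB with the replicate block). KIT stayed above 0 (0.07 to 0.25) and EDNRB below 0 (−0.46 to −0.12) in all 17 and 16 of them. BAZ1B reversed to −0.076 with median scaling, with and without the block, and to −0.070 with quantile normalization; leaving out single libraries gave −0.029 to 0.23. When single libraries were left out, MC1R ran from −0.017 to 0.36 and MITF from −0.20 to 0.14. The causes were not tested. The number of genes called was 3 with a pseudocount of 0.1, 0 with a minimum mean of 5 FPKM, 0 without both libraries numbered 2 and 0 to 4 without single libraries, against 1. With the replicate block it was 1, while genes at an unadjusted p under 0.05 numbered 2104 higher and 185 lower in Rongchang, against 713 and 76 without it. After median scaling these were 246 higher and 248 lower. The block changed no call. ENSSSCG00000008843, the gene called in the main fit, was called in all 12 alternatives in which it was tested (limma). Those fits reuse the values after which it was chosen, so the count is given only as a description. In the other 5 alternatives the gene was not tested. These were the minimum mean of 5 FPKM, each Rongchang library left out, and both libraries numbered 2 left out. The 1 gene called without Rongchang 1 or without Rongchang 2 was therefore a different one. List medians were above 0 in 145 of 170 alternative values, and 0 list genes passed in any. The median gene was itself above 0 except with median scaling, with and without the block (−0.015), and with quantile normalization (−0.007). The count of list medians therefore does not separate the lists from the shift of all genes. EDNRB and MC1R have no value with a minimum mean of 5 FPKM, and MITF has a test only with no filter on low values (adjusted p = 0.955). MITF and EDNRB were at most 2.23 FPKM in any library, and depth is unknown for every gene.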

Other observations

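Other genes proposed in studies of domestication or pig selection had 10 tested of 17 with a row, and 6 of them lay above 0, with a median log2 fold change of 0.18 and 0 called (limma). BMPR1B, a receptor for bone morphogenetic proteins, was at 10.8, 10.7 and 8.05 FPKM in Rongchang, against 8.78, 7.76 and 4.15 FPKM in wild boar (0.50, adjusted p = 0.789). The glutamate receptor genes GRIA1 and GRIK3 stood at 0.36 each, and GRIA2, the most abundant of the list, at 0.30 (adjusted p = 0.867), while GRIK2, also a glutamate receptor gene, stood at −0.17 (adjusted p = 0.866).

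Mast cell markers, a further source of KIT transcripts, had 3 of 9 with a row and summed to 2.08 to 2.66 FPKM in Rongchang and 2.54 to 4.69 FPKM in wild boar. Most of the sum was GATA2, a blood-cell transcription factor, at 1.59 to 2.17 FPKM in Rongchang and 2.40 to 4.19 FPKM in wild boar. HDC, the enzyme that makes histamine, averaged 0.475 FPKM in Rongchang and 0.38 FPKM in wild boar. FCER1A, which encodes a subunit of their IgE receptor, was listed at 0 in the 3 Rongchang libraries and at most 0.17 FPKM in wild boar. Interneuron markers (7 of 8 with a row) summed to 280 to 384 FPKM in Rongchang and 313 to 350 FPKM in wild boar. Choroid plexus markers (5 of 8 with a row) summed to 1.10 to 3.68 FPKM in Rongchang and 1.43 to 35.1 FPKM in wild boar. The transport protein TTR was at 0.26, 3.01 and 0.96 FPKM in Rongchang, against 1.34, 0.12 and 34.2 FPKM in wild boar, so that wild boar 3 stood apart for that gene. OTX2 and SLC4A5 were also highest in wild boar 3, at 0.109 and 0.149 FPKM. KCNJ13 was at most 0.687 FPKM in Rongchang and 0.873 FPKM in wild boar, where wild boar 3 was the lowest, and CLIC6 was highest in wild boar 2 (0.325 FPKM).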
